A study of Mus musculus with 36 samples.

Results

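Clock output factors are transcription factors that lie downstream of the circadian oscillator or feed back on it. The 7 genes described here are Dbp, Tef and Hlf, the PAR bZIP activators, their competitor Nfil3, the bHLH repressors Bhlhe40 and Bhlhe41, and Ciart. They were chosen by symbol and not by a cut on their values, though with earlier results of these data known. They are 7 of the 55470 gene rows in each count file. All 7 passed the filter on low counts and were tested.

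In the oscillator, CLOCK and BMAL1 bind E-boxes and drive their own repressors together with output genes. Dbp, Tef and Hlf encode activators that bind D-box elements, and Nfil3 encodes a repressor of the same elements. Bhlhe40 and Bhlhe41, also called Dec1 and Dec2, encode repressors that bind E-boxes, and Ciart, also called Chrono, encodes a repressor of CLOCK and BMAL1. In mice, loss of Dbp, Tef and Hlf together leads to seizures, and pyridoxal kinase, encoded by Pdxk, is a known target of these activators in brain and liver. Bhlhe40 is also known as a gene that responds to neuronal activity.

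Ribosome-bound RNA was measured in 36 cortex libraries from Shank3(∆C/+) mice, called Shank3 mice here, which carry 1 mutated allele of the postsynaptic scaffold gene Shank3, and from Shank3(+/+) littermates, called WT. All mice of both genotypes, naive controls included, carried HA-Rpl22 and Camk2a-Cre on a C57BL6JL background, so that ribosomes of cells expressing Cre under Camk2a, mainly pyramidal neurons, bore an HA tag for immunoprecipitation. The labels give HA-Rpl22 as f/+ in one field and as f/f in another. Swim stress was given in water at 25 °C, for 5 min by one field and 6 min by another, and brains were taken 1 h or 4 h later. Naive mice did not swim. Cohort 1 held 5 Shank3 and 6 WT libraries at 1 h with 3 Shank3 and 3 WT naive libraries. Cohort 2 held 6 Shank3 and 5 WT libraries at 4 h with 4 Shank3 and 4 WT naive libraries. The time of day, sex and age of the mice were not given in the sources used here, so the circadian phase of the groups is unknown. Time after the swim and cohort cannot be told apart, and each swim group was therefore compared with the naive mice of its own genotype and cohort.

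Libraries held between 0.884 and 3.52 M counts each. Over all libraries, pyramidal markers ranged widely, with 90601 counts on Camk2a and 9255 on Slc17a7, but 1727 on Cux2, 640 on Rorb and 261 on Fezf2. The interneuron gene Gad1 held 708. Of 8 endothelial markers, 7 averaged under 1 count per library, with Cldn5 at 0. So did 5 of 8 microglial markers, with P2ry12 at 2 counts in all. Other markers of non-pyramidal cells were counted often, with 26695 counts on microglial Csf1r and 7181 on oligodendrocyte Cnp. Astrocyte Slc1a2 held 3879 counts, interneuron Dlx1 2035 and endothelial Esam 1222. The Shank3 row held 4 to 146 counts per library and, as a sum over the whole gene, does not check the mutation. In these files 77.5% of counts lie on the 27.2% of rows whose exons face a gene on the opposite strand. Whether the rows of the members hold the reads of their own transcripts was not tested. The pair share is the share of counts on antisense and coding rows with overlapping exons that lies on the coding rows. Tef and Bhlhe40 are among these coding rows, each with the antisense gene opposite it. In every library most counts of such pairs lay on the antisense rows, and the pair share differed between groups. It was 17.5% to 33.1% in Shank3 libraries at 4 h against 11.9% to 15.0% in their naive controls (exact two-sided permutation test, p = 0.0191), and 17.0% to 31.6% in WT libraries at 4 h against 11.7% to 14.9% (exact p = 0.0159). At 1 h it was 12.6% to 16.8% in Shank3 libraries against 10.8% to 11.9% in their controls (exact p = 0.0714), and 11.4% to 17.0% in WT libraries against 10.7% to 11.02% (exact p = 0.0357). In both genotypes, at 1 h and at 4 h, the pair share of swim libraries did not overlap that of their naive controls. A fit with the pair share as a covariate therefore cannot separate it from the swim. A call kept or lost in that fit does not decide between them.

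Promoters are shown for the 3 members that passed a test in these data and hold a clock or activity motif in RefSeq's GRCm38.p6 table. Each line is the 250 bases before a transcription start, 5′ to 3′, with motif matches in capitals. Searched on both strands were the E-box CACGTG, the D-boxes TTATGTAA and TTACGTAA, the cAMP response element TGACGTCA and the consensus glucocorticoid response element. A match describes the letters only.
Hlf (chr11:90390918-90391167, minus strand): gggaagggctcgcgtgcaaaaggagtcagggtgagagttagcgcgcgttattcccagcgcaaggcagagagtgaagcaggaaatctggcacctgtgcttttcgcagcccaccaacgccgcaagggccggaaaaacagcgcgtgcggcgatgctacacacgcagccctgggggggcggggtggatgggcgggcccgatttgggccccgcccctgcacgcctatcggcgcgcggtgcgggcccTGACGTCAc
Tef, upstream start (chr15:81802423-81802672, plus strand): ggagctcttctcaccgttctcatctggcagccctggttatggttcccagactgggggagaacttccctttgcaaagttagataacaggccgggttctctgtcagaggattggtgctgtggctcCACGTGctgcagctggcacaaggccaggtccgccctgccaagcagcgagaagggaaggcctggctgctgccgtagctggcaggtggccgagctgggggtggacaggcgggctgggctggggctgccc
Tef, downstream start (chr15:81811164-81811413, plus strand): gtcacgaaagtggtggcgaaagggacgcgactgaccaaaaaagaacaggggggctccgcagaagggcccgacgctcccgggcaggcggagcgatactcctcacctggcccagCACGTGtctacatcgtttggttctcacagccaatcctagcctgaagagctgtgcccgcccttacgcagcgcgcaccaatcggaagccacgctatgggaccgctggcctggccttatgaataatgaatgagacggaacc
Ciart (chr3:95882229-95882478, minus strand): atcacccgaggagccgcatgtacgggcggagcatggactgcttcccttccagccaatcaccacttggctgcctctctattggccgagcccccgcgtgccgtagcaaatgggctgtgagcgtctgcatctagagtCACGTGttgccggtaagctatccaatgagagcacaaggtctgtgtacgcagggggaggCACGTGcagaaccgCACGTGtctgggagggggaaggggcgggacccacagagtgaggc
Ciart held 3 E-boxes, whose first bases lie at −116, −58 and −44 from the start. Each Tef start had 1 E-box, at −127 and −138, and a cAMP response element lay at −9 from the Hlf start. Bhlhe41 held 1 E-box at −153, while no searched motif was found in the windows of Dbp and Nfil3. No entry for Bhlhe40 was in the table. Of 32851 promoter windows of this length, 6.02% held an E-box, 1.55% a cAMP response element, 0.819% and 0.113% a D-box of the first and second spelling, and 0.387% a glucocorticoid element.

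Bhlhe40 was higher 1 h and 4 h after the swim in both genotypes. In counts per M counts of the TMM-scaled library (CPM), it read 44.9, 49.6, 48.7, 50.6 and 51.5 in Shank3 mice at 1 h, against 17.2, 12.8 and 22.8 in their naive controls. In WT mice at 1 h the lowest, median and highest CPM were 22.7, 42.1 and 67.4, against naive values of 19.0, 10.4 and 25.1. The Shank3 groups did not overlap, and all WT libraries but replicate 1 lay above every naive WT library of cohort 1. The log2 fold change was 1.48 ± 0.340 in Shank3 mice (SE, edgeR adjusted p = 0.00883) and 1.35 ± 0.352 in WT mice (SE, edgeR adjusted p = 0.00472). In a bulk value, more of this RNA per cell and a larger share of the cells that hold it cannot be told apart.

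At 4 h, Bhlhe40 had a lowest, median and highest CPM of 46.3, 67.2 and 119.5 in Shank3 mice, against 22.5, 18.4, 27.3 and 22.9 in their naive controls. WT mice had 68.3, 57.4, 60.6, 39.7 and 87.6 CPM at 4 h, against 13.8, 19.7, 26.5 and 21.9 in their naive controls. Neither pair of groups overlapped. The log2 fold changes were 1.83 ± 0.281 in Shank3 mice (SE, edgeR adjusted p = 3.31e-06) and 1.59 ± 0.286 in WT mice (SE, edgeR adjusted p = 3.13e-05). In order of mean CPM, Shank3 at 4 h (78.8 ± 30.7, SD, n = 6) came first, then WT at 4 h (62.7 ± 17.4, SD, n = 5), Shank3 at 1 h (49.0 ± 2.54, SD, n = 5) and WT at 1 h (44.4 ± 15.2, SD, n = 6), with all naive groups between 17.6 and 22.8. Each neighbouring pair in this order overlapped.

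With the pair share as a covariate, the 1 h rise of Bhlhe40 passed in both genotypes, at 1.19 in Shank3 mice and 0.94 in WT mice. At 4 h it was 0.88 in Shank3 mice and 0.77 in WT mice with that covariate, and neither passed the threshold. Since swim and naive libraries did not overlap in pair share, this fit cannot separate the pair share from the swim. Without replicate 2 of the cohort 1 Shank3 naive libraries the 1 h value in Shank3 mice was 1.31 and no longer passed, and without replicate 2 of the cohort 1 WT naive libraries the WT value was 1.03 and no longer passed. Bhlhe40 (chr6:108660629-108666925, plus strand, mm10) has 118 exon bases opposite exons of the antisense gene 0610040F04Rik. That row held 31850 counts in all libraries, against 3815 for Bhlhe40. Its log2 fold change was 0.12 in Shank3 mice and −0.04 in WT mice at 1 h, and neither passed. At 4 h it fell by 0.96 in Shank3 mice (edgeR adjusted p = 0.0134) and read −0.49 in WT mice, which did not pass. Where the authors' counting did not use strand, reads of the shared bases cannot be told apart.

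**Figure D1:**
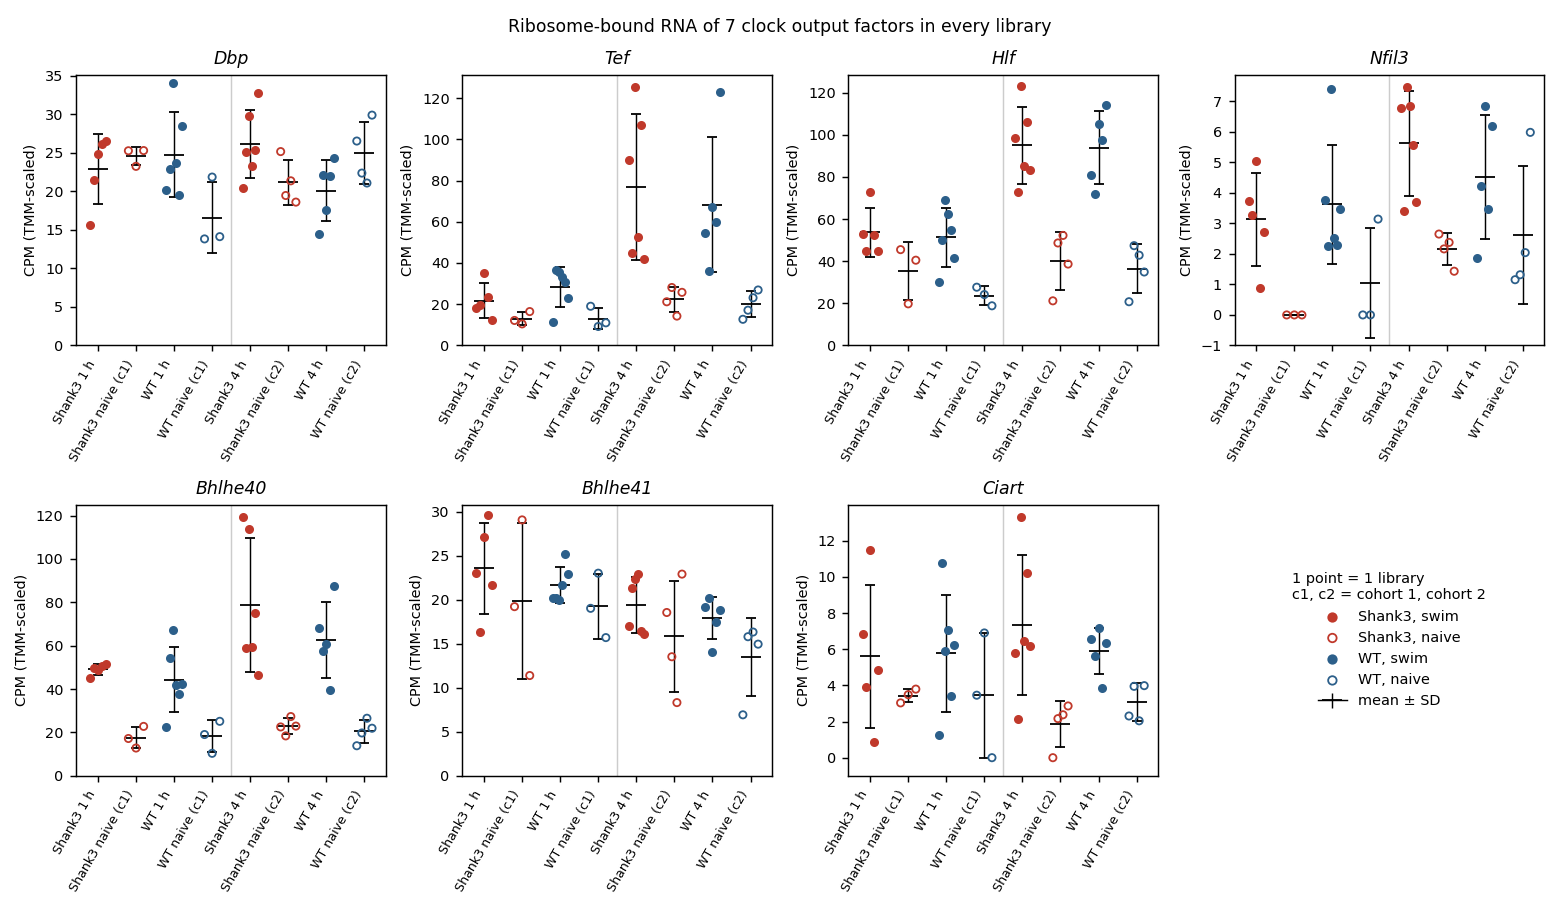
CPM of each member (linear axis) in each of the 36 libraries by group, with swim groups filled and naive groups open, Shank3 in red, WT in blue, and mean ± SD in black (cohort 1 left of the grey line, cohort 2 right of it). Bhlhe40, Hlf and Tef lie above their naive controls at 4 h in both genotypes, while Dbp and Bhlhe41 overlap them in every group.

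Hlf, a PAR bZIP activator, rose in WT mice at 1 h and in both genotypes at 4 h. WT libraries at 1 h had a lowest, median and highest CPM of 30.2, 52.6 and 68.9, all above the naive values of 27.7, 24.2 and 18.8. The log2 fold change was 1.14 ± 0.309 (SE, edgeR adjusted p = 0.0061). Shank3 libraries at 1 h had 53.0, 45.0, 73.1, 52.3 and 45.0 CPM, against 45.5, 19.8 and 40.5 in their naive controls, and the groups overlapped. The Shank3 difference at 1 h was 0.61 with a 95% interval of 0.02 to 1.19 and did not pass (edgeR adjusted p = 0.137). It passed with an additive cohort term, at 0.72, and when only the libraries compared were fitted, at 0.70, and it read 0.36 and did not pass with the pair share as a covariate.

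At 4 h Hlf had a lowest, median and highest CPM of 72.9, 91.9 and 123.4 in Shank3 mice, against 21.2, 48.7, 52.2 and 38.7 in their controls. WT mice had 80.9, 72.0, 105.3, 97.5 and 114.2 CPM, against 20.8, 47.4, 42.9 and 34.9 in theirs. The groups did not overlap in either genotype. Log2 fold changes were 1.22 ± 0.241 in Shank3 mice (SE, edgeR adjusted p = 6.21e-05) and 1.36 ± 0.250 in WT mice (SE, edgeR adjusted p = 3.8e-05). By mean CPM, Shank3 (94.95 ± 18.2, SD, n = 6) and WT (94.0 ± 17.3, SD, n = 5) at 4 h led, followed by Shank3 (53.7 ± 11.5, SD, n = 5) and WT (51.4 ± 14.1, SD, n = 6) at 1 h, with naive means of 23.6 to 40.2. No annotated gene lies opposite the exons of Hlf (chr11:90336536-90390895, minus strand). Among rows of this kind the median log2 fold change at 4 h was 0.62 in Shank3 mice and 0.58 in WT mice, and the 90th percentile was 1.82 in Shank3 mice and 1.60 in WT mice, so that Hlf lay between the median and the 90th percentile. Fitted with the pair share, Hlf read 0.45 in Shank3 mice at 4 h and did not pass, 0.71 in WT mice at 4 h, which passed, and 0.80 in WT mice at 1 h, which passed. Scaled on rows with nothing opposite, it read 0.78 in Shank3 mice and 0.96 in WT mice at 4 h, and both passed.

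Tef, another PAR bZIP activator, rose at 4 h in both genotypes and narrowly in WT mice at 1 h. Its lowest, median and highest CPM at 4 h were 42.0, 71.3 and 125.5 in Shank3 mice, against 21.2, 28.1, 14.2 and 25.8 in their controls. WT mice had 54.7, 36.2, 67.1, 59.9 and 123.0 CPM at 4 h, against 12.7, 17.1, 23.1 and 26.9 in theirs. The groups were apart in both genotypes. The highest libraries were Shank3 replicates 3 and 5 and WT replicate 5, which had the pair shares 32.7%, 30.1% and 31.6%. Shank3 replicate 1, which had the highest pair share of all libraries (33.1%), was not among them. The log2 fold changes were 1.77 ± 0.342 in Shank3 mice (SE, edgeR adjusted p = 4.76e-05) and 1.76 ± 0.353 in WT mice (SE, edgeR adjusted p = 0.000108). They were 0.04 in Shank3 mice and 0.27 in WT mice with the pair share as a covariate, and neither passed. The exon bases of Tef (chr15:81802421-81826863, plus strand) that face another gene number 193, and the facing row Gm17597 held 133 counts in all libraries.

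At 1 h, Tef had a lowest, median and highest CPM of 11.3, 32.1 and 36.8 in WT mice, against 19.0, 9.20 and 10.99 in their controls. Shank3 mice had 18.1, 19.6, 34.9, 23.5 and 12.5 CPM, against 12.1, 10.5 and 16.4. The groups overlapped in both genotypes. The log2 fold change was 1.20 ± 0.472 in WT mice (SE, edgeR adjusted p = 0.0447) and 0.75 ± 0.458 in Shank3 mice (SE, edgeR adjusted p = 0.254). The WT call was lost, with values of 0.98 to 1.19, without WT naive replicate 2 or 3, WT 1 h replicate 2, 3, 4 or 5, WT 4 h replicate 1, 3 or 4, or Shank3 4 h replicate 1. It was also lost in DESeq2 (1.12) and limma (1.15), with RLE size factors (1.15) and without libraries rich in ribosomal RNA (1.20). The Shank3 value passed when only the libraries compared were fitted, at 0.85. Fitted with the pair share, the value was 0.19 in Shank3 mice and 0.43 in WT mice, and neither passed. Under scaling on rows with nothing opposite the WT value was 0.80 and did not pass.

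Dbp, the PAR bZIP gene best known for its large daily rhythm, did not pass in any comparison. Shank3 mice had 15.6, 21.5, 24.8, 26.2 and 26.5 CPM at 1 h, against 25.3, 23.2 and 25.3 in their controls. At 4 h the lowest, median and highest were 20.5, 25.3 and 32.7 in Shank3 mice, against 25.2, 19.5, 21.4 and 18.6 in their controls. WT mice had a lowest, median and highest CPM of 19.5, 23.3 and 34.1 at 1 h, against 13.8, 21.9 and 14.1. All of these groups overlapped, as did the WT libraries at 4 h, with 14.5, 22.1, 17.6, 21.9 and 24.4 CPM against 26.5, 22.4, 21.1 and 29.9 in their controls. The log2 fold changes were −0.10 (95% interval −0.59 to 0.38) in Shank3 mice and 0.56 (0.03 to 1.08) in WT mice at 1 h, and 0.30 (−0.12 to 0.73) in Shank3 mice and −0.29 (−0.72 to 0.13) in WT mice at 4 h. Scaled on rows with nothing opposite, the 4 h values read −0.13 in Shank3 mice, which turns the sign, and −0.70 in WT mice, which passed as lower.

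Dbp (chr7:45705088-45710203, plus strand) has 539 exon bases opposite Sphk2, a protein-coding gene. The Sphk2 row held 73836 counts over all libraries, against 1508 on Dbp. Sphk2 fell by 1.18 on the log2 scale in Shank3 mice at 4 h (edgeR adjusted p = 0.000157) and by 1.11 in WT mice (edgeR adjusted p = 0.000704), and both values were near 0 with the pair share as a covariate, at 0.02 in Shank3 mice and −0.05 in WT mice. Dbp itself had a slope of 0.06 log2 units for each doubling of the pair share. Reads from the shared exon may be split between both rows, and whether the Dbp row holds the reads of its own transcript was not tested. The Dbp values are therefore uncertain, and do not show that the transcript was unchanged.

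Bhlhe41, the paralogue of Bhlhe40, also passed in no comparison. Shank3 mice had 23.1, 16.3, 27.1, 29.6 and 21.7 CPM at 1 h, against 19.2, 29.1 and 11.4 in their controls, and WT mice had a lowest, median and highest CPM of 20.0, 20.9 and 25.2, against 19.0, 23.0 and 15.7. At 4 h the lowest, median and highest in Shank3 mice were 16.1, 19.2 and 22.9, against 18.5, 13.5, 8.31 and 22.9, and WT mice had 19.2, 20.2, 14.02, 17.4 and 18.9 CPM, against 6.92, 15.8, 16.3 and 15.0. Every swim group overlapped its controls. The log2 fold changes were 0.23 (95% interval −0.32 to 0.79) in Shank3 mice and 0.15 (−0.43 to 0.73) in WT mice at 1 h, and 0.33 (−0.16 to 0.83) in Shank3 mice and 0.38 (−0.13 to 0.90) in WT mice at 4 h. These intervals end below the 4 h estimates of Bhlhe40 in both genotypes, although the difference between the paralogues was not tested. Bhlhe41 (chr6:145858243-145865558, minus strand) has 1280 exon bases opposite exons of Gm43909, the longest overlap of exons with exons among the 7 genes. That row held 4108 counts against 1242 on Bhlhe41. Scaled on rows with nothing opposite, the Bhlhe41 values read 0.01 in Shank3 mice and −0.22 in WT mice at 1 h, and −0.11 in Shank3 mice at 4 h, so its direction is not set by these data. Whether the Bhlhe41 row holds the reads of its own transcript was not tested.

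Nfil3 and Ciart were counted only 273 and 389 times in all libraries. Nfil3, the D-box repressor, had 28 counts over the 5 Shank3 libraries at 1 h (6, 5, 11, 1 and 5), against 0 in each of the 3 naive controls. This is at least 2.97-fold higher, taking 3 counts over the naive group as the limit that a count of 0 allows, and it passed (edgeR adjusted p = 0.0214). WT mice had 30 counts over 6 libraries at 1 h, from 2 to 10 each, against 0, 0 and 2, a ratio of 3.61 with an exact 95% interval of 0.915 to 31.1 for counting error, and this did not pass. At 4 h there were 6 to 35 counts per Shank3 library, 112 in all, against 2, 4, 2 and 1. The ratio was 2.77 (exact interval 1.41 to 6.22), and the log2 fold change of 1.39 ± 0.518 passed (SE, edgeR adjusted p = 0.0198). WT mice had 81 counts over 5 libraries at 4 h against 11 in 4 naive libraries, a ratio of 1.86 (0.989 to 3.88) that did not pass.

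The calls for Nfil3 hung on single libraries and settings. The 1 h Shank3 call was lost without any 1 of the 3 naive libraries or Shank3 1 h replicate 3, and the 4 h Shank3 call was lost without Shank3 naive replicate 5, with a log2 value of 1.39. In WT mice it passed at 1 h without WT naive replicate 3, which held both naive counts, and at 4 h without WT naive replicate 7, at a log2 value of 1.52, and at 1 h with an additive cohort term, at 2.56. With the pair share as a covariate the WT value at 4 h was 0.12 and did not pass. The 4 h Shank3 value was 0.60 with the pair share as a covariate, 0.97 with scaling on rows with nothing opposite and 1.10 without libraries of pair share over 30%, and passed in none of these. Nfil3 (chr13:52967209-52981073, minus strand) has no gene opposite its exons.

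Ciart, the repressor with 3 E-boxes before its start, passed in Shank3 mice at 4 h and in no other comparison. It had 5 to 50 counts per library there, 144 in all, against 0, 4, 2 and 2 in the naive controls. The highest of these libraries was replicate 3 at 13.3 CPM, and the lowest, replicate 2 at 2.13 CPM, lay within the naive range. The ratio of counts was 4.01 (exact 95% interval 1.98 to 9.47), and the log2 fold change was 1.94 ± 0.595 (SE, edgeR adjusted p = 0.00532). WT mice at 4 h had 97 counts over 5 libraries against 12 in 4 naive libraries, a ratio of 2.05 (1.12 to 4.10), and the log2 value of 0.99 did not pass (edgeR adjusted p = 0.128). That WT value passed, again at 0.99, when only the libraries compared were fitted, and was −0.06, with its sign turned, with the pair share as a covariate. At 1 h the ratio was 1.84 (0.897 to 4.24) in Shank3 mice and 1.77 (0.844 to 4.30) in WT mice, and neither passed. The log2 values at 1 h were 0.80 in Shank3 mice and 0.76 in WT mice, and 0.43 in Shank3 mice and 0.21 in WT mice with that covariate. The 4 h Shank3 value was 0.72 with the pair share as a covariate and 1.30 without libraries of pair share over 30%, and passed in neither. Ciart (chr3:95878503-95882251, minus strand) lies within an intron of C920021L13Rik on the opposite strand, a row with 441 counts. Whether the Ciart row holds the reads of its own transcript was not tested.

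Counted together, 2 of the 7 genes passed as higher in Shank3 mice at 1 h (Bhlhe40 and Nfil3) and 0 as lower. Of the 11341 genes tested, 12.2% passed in that comparison, 4.99% as higher and 7.25% as lower. In WT mice at 1 h, 3 passed as higher (Bhlhe40, Hlf and Tef) and 0 as lower, where 34.2% of all genes passed, 16.9% as higher and 17.3% as lower. At 4 h, 5 passed as higher and 0 as lower in Shank3 mice, where 62.1% of all genes passed, 32.7% as higher and 29.4% as lower. In WT mice at 4 h, 3 passed as higher and 0 as lower, where 56.0% of all genes passed, 29.0% as higher and 26.9% as lower. The median log2 fold change of the members was 0.75 in Shank3 mice and 1.14 in WT mice at 1 h, against 0.09 and 0.24 over all genes tested. At 4 h it was 1.39 in Shank3 mice and 0.99 in WT mice, against 0.22 and 0.23 over all genes tested. The 1 h Shank3 median is the same with Nfil3 at its bound. Scaled on rows with nothing opposite, the medians over all genes were −0.12 in Shank3 mice and −0.14 in WT mice at 1 h, and −0.21 in Shank3 mice and −0.17 in WT mice at 4 h, below those under TMM scaling. That scaling left 2 members past the threshold in Shank3 mice and 2 in WT mice at 1 h, where 9.32% and 31.2% of genes passed in either direction, and where those in Shank3 mice were Bhlhe40 and Nfil3 and those in WT mice Bhlhe40 and Hlf. At 4 h, 4 passed as higher in Shank3 mice (Tef, Hlf, Bhlhe40 and Ciart), and in WT mice 3 passed as higher (Tef, Hlf and Bhlhe40) and 1, Dbp, as lower, where 56.1% of genes in Shank3 mice and 50.0% in WT mice passed in either direction. Fitted with the pair share, 2 members passed in Shank3 mice and 2 in WT mice at 1 h, where 12.0% and 21.7% of genes passed in either direction, and 0 in Shank3 mice and 1 in WT mice at 4 h, where 0.529% and 7.69% did.

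**Figure D2:**
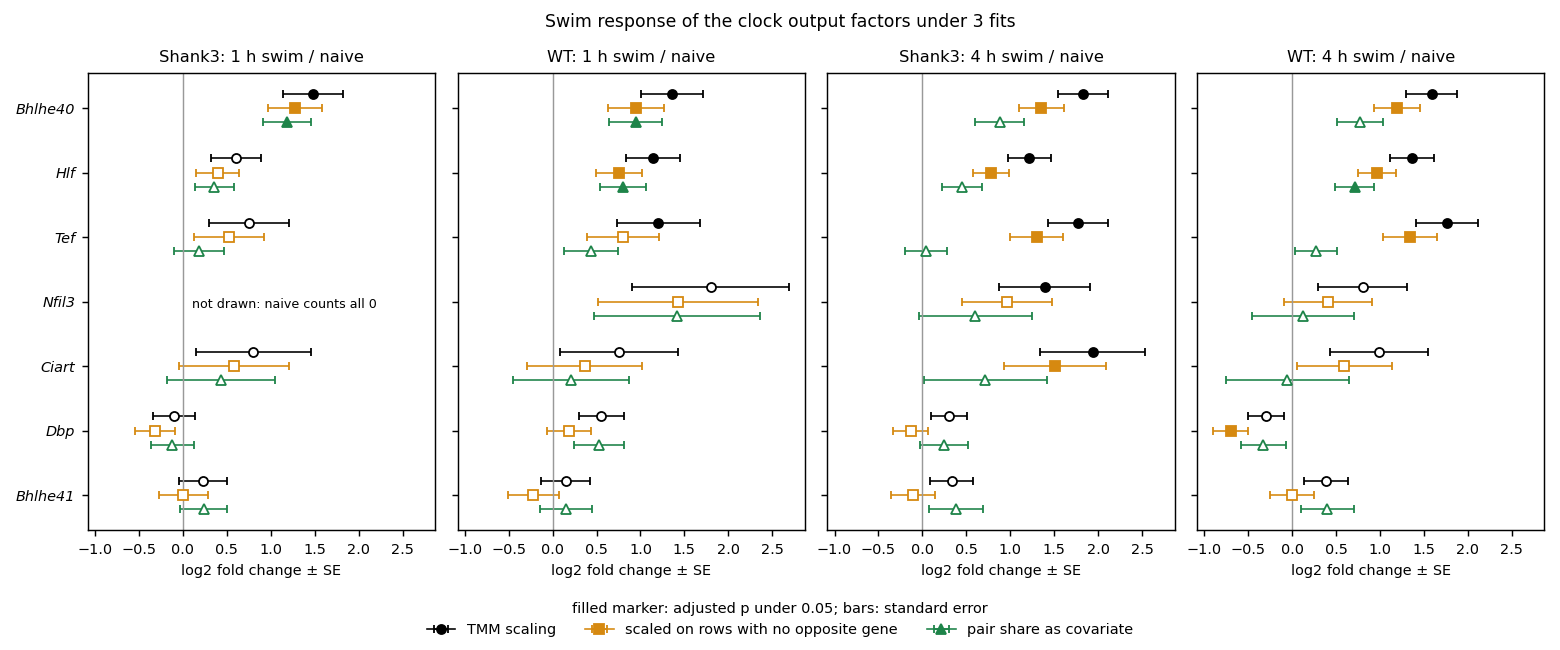
Log2 fold change (bars, SE) of each member against the naive mice of the same genotype and cohort under TMM scaling, under scaling on rows with no opposite gene, and with the pair share as a covariate, with filled markers for an adjusted p under 0.05. Bhlhe40 is filled in all 3 fits at 1 h in both genotypes (1.48, 1.28 and 1.19 in Shank3 mice), and Tef lies at 0.04 in Shank3 mice at 4 h with the covariate.

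The members differed in how steeply their levels ran with the pair share across libraries within groups. For each doubling of the pair share, the slope was 1.78 log2 units for Tef, 1.24 for Ciart, 1.01 for Bhlhe40, 0.82 for Nfil3 and 0.81 for Hlf, all past the threshold, as were 62.9% of all genes tested. It was 0.06 for Dbp and −0.04 for Bhlhe41, which did not pass. The median slope was 0.14 over all genes and 0.48 over rows with nothing opposite. The rows opposite the members had slopes of −1.38 for Sphk2, −1.95 for 0610040F04Rik, −0.97 for Gm43909, −1.66 for Gm17597 and −1.71 for C920021L13Rik. Tef, Bhlhe40, Gm17597 and 0610040F04Rik are themselves counted in the pair share, so their slopes are not independent of it. The Shank3 libraries at 1 h, of cohort 1, with pair shares of 12.6% to 16.8% had 44.9 to 51.5 CPM of Bhlhe40. At shares that overlap these in part, 11.9% to 15.0%, the naive Shank3 libraries of cohort 2 had 18.4 to 27.3 CPM. The naive Shank3 libraries of cohort 1, at 10.8% to 11.9%, lay below the shares at 1 h and had 12.8 to 22.8 CPM. Cohort differs in the first of these comparisons, and the part of the pair share was not tested by them. WT 1 h replicate 1, with a pair share of 11.4%, had 22.7 CPM and lay within the naive range.

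**Figure D3:**
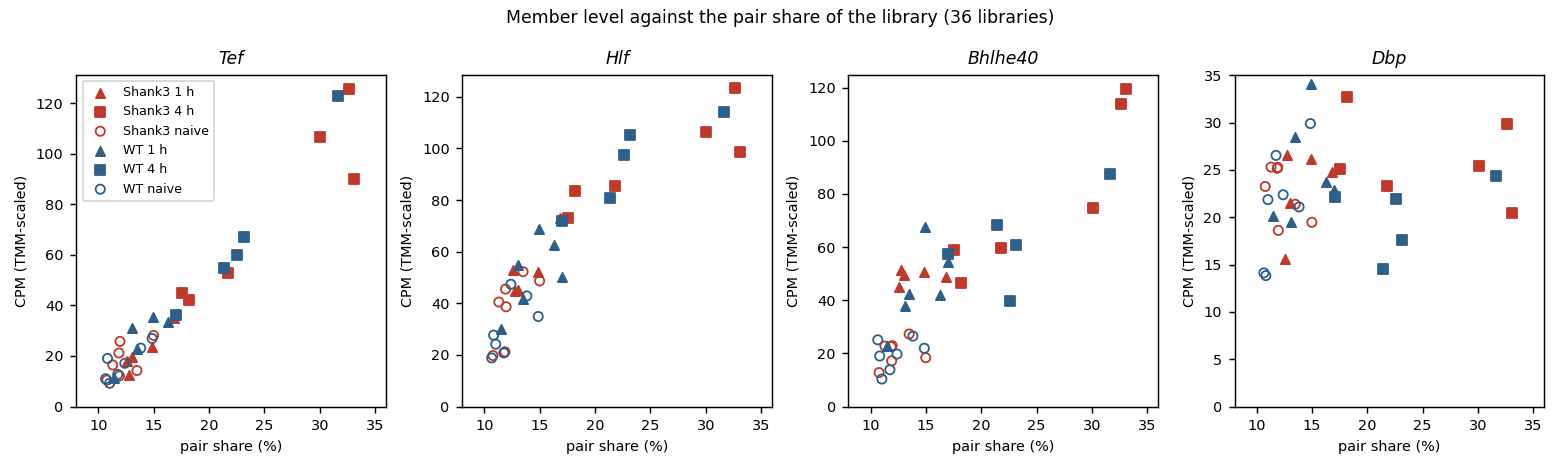
CPM of Tef, Hlf, Bhlhe40 and Dbp (linear axes) against the pair share in percent, 1 point a library, with Shank3 in red, WT in blue, triangles for 1 h, squares for 4 h and open circles for naive mice. Tef climbs with the pair share through all groups, 10 of the 11 libraries at 1 h lie above every naive library in Bhlhe40, the exception being WT replicate 1 at 22.7 CPM, and Dbp shows no trend.

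Other values moved with the 4 h groups as well. The summed CPM of the 10 pyramidal markers was 2235 to 3776 in Shank3 mice at 4 h against 1586 to 1966 in their controls, and 2303 to 3937 in WT mice against 1456 to 2089. The 8 oligodendrocyte markers summed to 123.5 to 326 CPM in Shank3 mice at 4 h against 73.0 to 123.3, and to 117 to 269 in WT mice against 84.2 to 91.7. The 8 astrocyte markers summed to 84.8 to 103 CPM in Shank3 mice against 37.1 to 62.9, and to 86.5 to 110 in WT mice against 35.8 to 91.7. All 6 of these differences had an exact two-sided permutation p of 0.0238 or less. The 8 microglial markers fell to 171 to 375 CPM in Shank3 mice at 4 h against 567 to 816, and to 176 to 397 in WT mice against 583 to 885, nearly all on Csf1r with 26695 counts over all libraries (exact p = 0.00476 in Shank3 mice and 0.00794 in WT mice). The 8 interneuron markers summed to 40.8 to 72.8 CPM in Shank3 mice at 4 h against 44.4 to 78.9 (exact p = 0.205). In WT mice they summed to 30.9 to 53.6 against 53.7 to 82.9 (exact p = 0.0159). The 8 endothelial markers summed to 9.28 to 21.6 in Shank3 mice against 19.5 to 35.8 (exact p = 0.019). In WT mice they summed to 12.8 to 28.2 against 15.9 to 26.5 (exact p = 0.68). Over all libraries, Dlx1 held the most interneuron counts (2035) and Esam nearly all endothelial counts (1222). The part of these markers in the changes of the members was not tested.

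No member passed the test between genotypes. Comparing Shank3 with WT, 0 of the 7 passed in naive mice or after either delay in edgeR, DESeq2 or limma, where 0.00882%, 0% and 0.00882% of all genes passed in edgeR. At an unadjusted p under 0.05 there were 0 among naive groups, 0 at 1 h and 1 at 4 h. That gene was Dbp, 0.36 higher on the log2 scale in Shank3 mice at 4 h (95% interval 0.01 to 0.70), which did not pass after adjustment. Nor did any member pass the test of a difference in swim effect between genotypes, with 0 calls of 7 at 1 h and 0 at 4 h in edgeR, DESeq2 and limma, where 0% of genes passed in edgeR, and 0 at 1 h and 1 at 4 h, again Dbp, at an unadjusted p under 0.05. The Dbp difference in swim effect was 0.60 at 4 h (0.00 to 1.19) and −0.66 at 1 h (−1.38 to 0.06).

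The intervals bound how large a genotype difference could be. For Bhlhe40 the log2 difference of Shank3 against WT was 0.04 in naive mice (95% interval −0.52 to 0.61), 0.12 at 1 h (−0.36 to 0.60) and 0.34 at 4 h (−0.11 to 0.78). For Hlf it was 0.37 (−0.09 to 0.84) in naive mice, 0.05 (−0.39 to 0.49) at 1 h and 0.01 (−0.40 to 0.42) at 4 h. Tef had wider intervals, at 0.10 (−0.64 to 0.84) in naive mice, −0.42 (−1.06 to 0.22) at 1 h and 0.17 (−0.37 to 0.71) at 4 h. The naive values of Dbp in cohort 1 were 25.3, 23.2 and 25.3 CPM in Shank3 mice against 13.8, 21.9 and 14.1 in WT mice, which did not overlap, but in cohort 2 they overlapped.

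**Figure D4:**
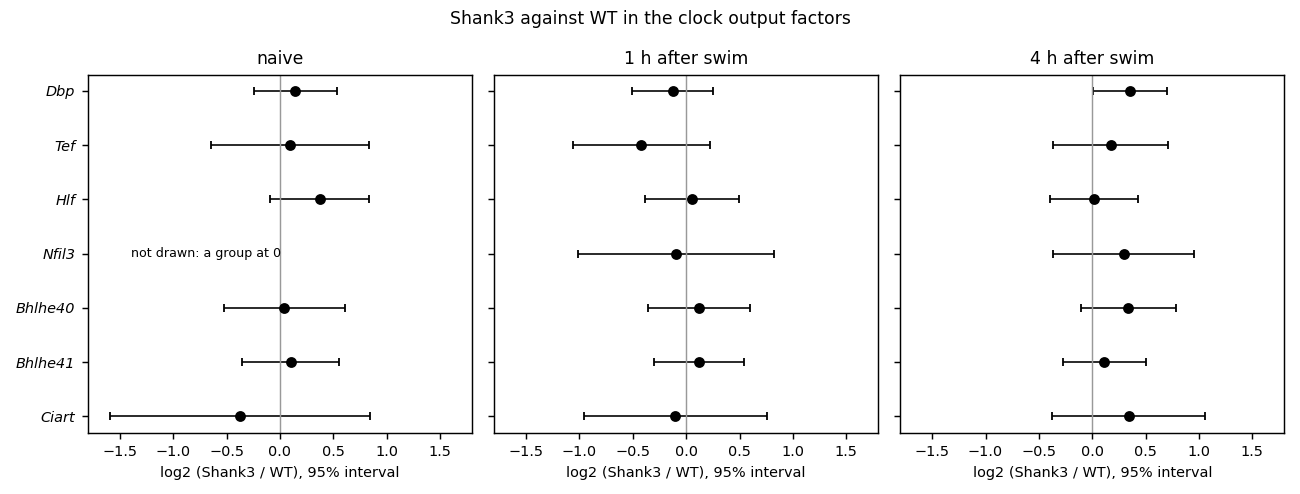
Log2 ratio of Shank3 to WT with its 95% interval for each member in naive mice, 1 h and 4 h after the swim. All intervals but that of Dbp at 4 h cross 0, and Nfil3 is not drawn in naive mice because the naive Shank3 libraries of cohort 1 were at 0.

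The swim effect at 4 h minus that at 1 h, averaged over genotypes, passed for 0 of 7 members in edgeR, DESeq2 and limma, where 12.4% of genes passed in edgeR (3.74% as higher and 8.61% as lower), and 1 member, Nfil3, had an unadjusted p under 0.05. The differences were 0.29 (95% interval −0.37 to 0.94) for Bhlhe40, 0.42 (−0.14 to 0.97) for Hlf and 0.78 (−0.08 to 1.65) for Tef. Between naive mice of cohort 2 and cohort 1, 1 member passed as higher, Nfil3, and 0 as lower, where 10.7% of genes passed, 5.78% as higher and 4.88% as lower. It had 9 counts in 4 Shank3 libraries of cohort 2 against 0 in 3 of cohort 1, at least 1.91-fold higher, and 11 counts in 4 WT libraries against 2 in 3, a ratio of 2.80 (exact interval 0.610 to 25.97). DESeq2 gave Nfil3 no adjusted p there, and the edgeR call was lost without any 1 of 9 naive libraries, which were Shank3 naive replicates 1, 2, 3, 5 and 6 and WT naive replicates 1, 2, 6 and 7. No other member passed between the naive cohorts, with log2 differences of 0.75 (0.02 to 1.48) for Tef and −0.44 (−0.90 to 0.01) for Bhlhe41. Tef did pass there without the low-count filter (0.79), when only the libraries compared were fitted (0.86), where Nfil3 was not fitted, and without libraries of pair share over 30% (0.78), and it read 0.28 and did not pass with the pair share as a covariate.

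Between genes, the counts of rows can be set side by side only per length. Exon bases opposite any part of another gene, introns included, number 2261 in Ciart, 1280 in Bhlhe41, 539 in Dbp, 306 in Bhlhe40 and 193 in Tef. Hlf and Nfil3 have none. The order below is therefore one of rows and may differ from that of the transcripts. In naive Shank3 mice of cohort 2, mean CPM per kilobase of exon was 7.07 for Dbp, 6.02 for Hlf, 4.84 for Bhlhe40, 2.84 for Tef, 2.35 for Bhlhe41, 1.06 for Nfil3 and 0.818 for Ciart. In Shank3 mice at 4 h the order was Bhlhe40 at 16.8, Hlf at 14.2, Tef at 9.78, Dbp at 8.74, Ciart at 3.25, Bhlhe41 at 2.88 and Nfil3 at 2.78. In WT mice at 4 h it was Hlf at 14.1, Bhlhe40 at 13.3, Tef at 8.67, Dbp at 6.72, Bhlhe41 at 2.67, Ciart at 2.61 and Nfil3 at 2.23. The Dbp row led in all 4 naive groups and lay below those of Bhlhe40, Hlf and Tef at 4 h in both genotypes.

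The genes whose log2 CPM ran most like a member's over the 36 libraries were, among 5759 candidates, Eef2, Zwint and Crmp1 for Tef (Pearson r of 0.96, 0.96 and 0.96), Prkacb, Rap1gds1 and Ap2m1 for Hlf (0.95, 0.95 and 0.94), and Wdr47, Nuak1 and Snap91 for Bhlhe40 (0.92, 0.92 and 0.90). For the scarce members the best were Rnf187, Parva and Zfp704 for Ciart (0.81, 0.75 and 0.75) and Slc30a9, Dusp8 and Bzw1 for Nfil3 (0.78, 0.78 and 0.78). Dbp and Bhlhe41 had weaker best matches, with AI593442, Pde7b and Pdia6 for Dbp (0.64, 0.61 and 0.60) and Plekha5, Tnrc6c and Brd8 for Bhlhe41 (0.59, 0.55 and 0.54). Among the members, Tef and Hlf had r = 0.87, Hlf and Bhlhe40 0.84 and Tef and Bhlhe40 0.82, while Dbp had r of 0.01 to 0.22 with every other member. The libraries share the pair share, in which Tef and Bhlhe40 are themselves counted. With it, log2 CPM had r = 0.95 for Tef, 0.88 for Hlf, 0.82 for Bhlhe40 and 0.17 for Dbp. These values describe the libraries and carry no test.

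Of the genes of the core oscillator, 17 of 22 on a list were tested. None passed in Shank3 mice at 1 h, where 12.2% of all genes did, and in WT mice at 1 h 4 were higher and 1 lower, where 34.2% of all genes passed. At 4 h, 13 were higher and 1 lower in Shank3 mice, and 12 higher and 1 lower in WT mice, where 62.1% and 56.0% of all genes passed in either direction. The median log2 fold change of the list was 0.57 in Shank3 mice and 0.80 in WT mice at 1 h, against 0.09 and 0.24 over all genes tested, and 0.77 in Shank3 mice and 0.80 in WT mice at 4 h, against 0.22 and 0.23. Cry2, a repressor of CLOCK and BMAL1, rose by 1.501 ± 0.270 in Shank3 mice at 4 h (SE, edgeR adjusted p = 1.86e-05) and by 1.23 ± 0.278 in WT mice (SE, edgeR adjusted p = 0.000386). Per1 and Per2, which repress the same pair, rose by 2.85 ± 0.529 and 1.68 ± 0.376 in Shank3 mice at 4 h (SE, edgeR adjusted p = 2.82e-05 and 0.000265). Their WT values are not given, since at most 4 genes of smallest p were named per comparison. For the difference in swim effect between genotypes at 4 h, 0 genes of the list passed. Nr1d1, the nuclear receptor that represses Bmal1 and Nfil3, fell by 1.63 ± 0.262 in Shank3 mice (SE, edgeR adjusted p = 4.66e-06) and by 1.76 ± 0.277 in WT mice at 4 h (SE, edgeR adjusted p = 7.34e-06), and its exons face another gene. With the pair share as a covariate, Nr1d1 passed in WT mice at 1 h (−0.46) and 4 h (−0.58). The 4 h values of Cry2, Per1 and Per2 given here did not pass with it. Per1 and Per2 were read with that covariate only in Shank3 mice at 4 h.

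Of 10 genes known as targets of PAR bZIP factors in other mouse tissues or in brain, 7 were tested. None passed in Shank3 mice at 1 h and 1 was lower in WT mice at 1 h, while at 4 h 3 were higher and 2 lower in Shank3 mice and 1 was higher and 2 lower in WT mice. All genes passed at 12.2% in Shank3 mice and 34.2% in WT mice at 1 h, and at 62.1% in Shank3 mice and 56.0% in WT mice at 4 h, so that the 4 h counts lie near the share of all genes. The median of the list was −0.49 in Shank3 mice and 0.13 in WT mice at 1 h, and 0.07 in Shank3 mice and 0.18 in WT mice at 4 h, against the medians over all genes of 0.09, 0.24, 0.22 and 0.23 in that order. Pdxk rose by 1.35 ± 0.313 in Shank3 mice (SE, edgeR adjusted p = 0.000376) and 1.15 ± 0.317 in WT mice at 4 h (SE, edgeR adjusted p = 0.00267). Gls2, which encodes a glutaminase, rose by 1.68 ± 0.430 in Shank3 mice at 4 h (SE, edgeR adjusted p = 0.00108). For the difference in swim effect between genotypes at 4 h, 0 of these targets passed. Nr1i3, a nuclear receptor of xenobiotic metabolism, and Gmpr, a guanosine monophosphate reductase, fell by 1.33 ± 0.244 and 1.07 ± 0.215 in Shank3 mice and by 1.41 ± 0.257 and 0.88 ± 0.225 in WT mice at 4 h (SE, all 4 past an edgeR adjusted p of 0.05). All 7 tested targets have exons that face another gene, and none of the 4 named here passed at 4 h with the pair share as a covariate.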

How the data were processed

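Ribosome-bound RNA of 36 mouse cortex libraries was sequenced from a stranded TruSeq mRNA kit as pairs of 100 bp reads, at a stated 15 M reads per sample, per the labels' protocols. The authors deposited whole-number counts per gene, not normalized, for 55470 Ensembl identifiers per library. The submitters' processing notes name HISAT2 2.2.0, Salmon 1.4, StringTie 2.1.3, DESeq2, Trimmomatic 0.39 and FastQC, and the build mm10. The counting tool and its strand setting are not given in the sources used here.

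Symbols and positions came from a gene name table and GENCODE vM21 (mm10), and promoters from RefSeq (GRCm38.p6). The 7 members were tested in a fit of 8 groups over all libraries with edgeR 4.0.16 (quasi-likelihood, TMM scaling, R 4.3.3), which kept 11341 genes with 28 residual degrees of freedom. P-values were adjusted by Benjamini-Hochberg over all genes tested, with a threshold of 0.05. CPM values are counts per M of the TMM-scaled library size, from totals of 0.884 to 3.52 M counts. A fold against a group at 0 was taken against 3 counts over that group. Ratios of summed counts carry exact binomial limits (Clopper-Pearson, 95%), which cover counting error only. The fit was tested on simulated counts. Antisense and coding rows with overlapping exons on opposite strands (1813 pairs) gave the pair share, the percent of their counts on coding rows.

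The members, the lists of core clock genes, PAR bZIP targets, glucocorticoid-responsive genes, rapid immediate-early genes and cell type markers, the tests and the pair share were chosen with earlier results of these data known. Named were all members, the rows opposite them, up to 4 genes of smallest p per list and comparison, and the 3 genes most like each member with a mean count of at least 20. Nothing in the labels ties libraries to named animals, so p-values measure the spread between these libraries, which may be technical. No 2 libraries of a group agreed within sampling noise over 68 pairs (chi-square per degree of freedom of at least 1.46). Alternatives were other scalings, filters and tools (limma 3.58.1, DESeq2 1.42.0), the pair share as a covariate, a cohort term, a replicate block, and leaving out libraries. Scaling on rows with nothing opposite, and leaving out libraries with a pair share over 30%, were added after the data were seen.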

Additional observations from a re-analysis of the deposited data

Results flagged for a closer look

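The members, the rows opposite them and the pair share were checked for a library far from the others of its group, in 78 groups of 4 to 6 libraries, where chance alone marks about 1 in 20. Libraries stood apart in 7 of them. Hlf in Shank3 mice at 1 h had 73.1 CPM in replicate 3, against 45.0 to 53.0 CPM in the others. Nfil3 in WT mice at 1 h had 7.41 CPM (10 counts) in replicate 3, against 2.24 to 3.78 CPM. Bhlhe41 in naive WT mice of cohort 2 had 6.92 CPM (6 counts) in replicate 4, against 14.95 to 16.3 CPM. Sphk2, opposite Dbp, had 1011 CPM in naive Shank3 replicate 5 of cohort 2, against 1743 to 1810 CPM. C920021L13Rik, around Ciart, had 21.4 CPM in WT 1 h replicate 1 against 3.14 to 8.15 CPM, 7.53 CPM in WT 4 h replicate 2 against 2.34 to 3.59 CPM, and 31.2 CPM in naive WT replicate 4 of cohort 2 against 7.97 to 10.5 CPM. No member's swim effect went one way in every library of one genotype and the other way in every library of the other.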

How the results depend on the processing

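Counts of members past the threshold are given for Shank3 and WT mice at 1 h and then Shank3 and WT mice at 4 h, where the values above were 2, 3, 5 and 3. They were 2, 2, 0 and 1 with the pair share as a covariate, 1, 2, 5 and 3 in DESeq2 (where Nfil3 had no adjusted p in Shank3 mice at 1 h or between naive cohorts), and 2, 3, 5 and 3 with a replicate block or without the low-count filter. They were 3, 4, 5 and 3 with an additive cohort term, which added Hlf in Shank3 and Nfil3 in WT mice at 1 h, and 3, 3, 5 and 4 with only the libraries compared (Tef, Hlf and Bhlhe40 in Shank3 mice at 1 h, and Ciart added in WT mice at 4 h). RLE size factors and limma each gave 2, 2, 5 and 3, leaving out libraries rich in ribosomal RNA 2, 2, 4 and 3, and scaling on rows with nothing opposite 2, 2, 4 and 4, each without Tef in WT mice at 1 h. With only rows that have nothing opposite they were 0, 1, 1 and 1, since Hlf was then the only member fitted, and they were 2, 3, 3 and 3 without libraries whose pair share was over 30%. Leaving out each library gave 0 to 2, 1 to 3, 4 to 5 and 3 to 4, 0 to 1 for the 4 h minus 1 h difference, 0 to 1 for the naive cohorts, and 0 in every genotype comparison and interaction. The lower ends at 1 h came without naive Shank3 replicate 2 (0 members) and without naive WT replicate 2 (1 member) of cohort 1. The naive cohort count of 1 was 0 in DESeq2, with the pair share, with only rows with nothing opposite, with an additive cohort term, with a replicate block, with scaling on rows with nothing opposite and without libraries rich in ribosomal RNA, and 2, Nfil3 and Tef, without the filter and without libraries of pair share over 30%. It was 1 with only the libraries compared, where that member was Tef. No genotype comparison or interaction had a call under any alternative run. With the pair share as a covariate, signs turned for 0610040F04Rik (0.67 in WT mice at 1 h, 0.77 in Shank3 and 0.96 in WT mice at 4 h), Sphk2 (0.020), C920021L13Rik (0.045) and Pdxk (−0.0034) in Shank3 mice at 4 h, and Gmpr (0.035) and Ciart (−0.06) in WT mice at 4 h. The cause was not tested. Same-numbered libraries of a cohort correlated at −0.25 to 0.73 over 39 pairs, 10 of them above 0.1. Libraries of different number were not set beside them, so this check cannot decide whether the numbers pair the libraries. Fitting only the libraries compared gave no value for the 4 h minus 1 h difference. At these depths Nfil3 and Ciart held few counts per library, which limits what can be detected for them.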

Other observations

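Among rapid immediate-early genes, which neurons induce within minutes of activity, 19 of 23 on a list were tested. At 1 h, 5 were higher and 0 lower in Shank3 mice, and 9 were higher and 2 lower in WT mice, where 12.2% and 34.2% of all genes passed in either direction. At 4 h, 13 were higher and 3 lower in Shank3 mice, and 12 higher and 2 lower in WT mice, where 62.1% and 56.0% of all genes passed. The median log2 fold change of the list was 0.91 in Shank3 mice and 1.04 in WT mice at 1 h, against 0.09 and 0.24 over all genes tested, and 1.51 in Shank3 mice and 1.25 in WT mice at 4 h, against 0.22 and 0.23. Fos, an AP-1 subunit, rose by 3.16 ± 0.552 in Shank3 mice at 1 h (log2, SE, edgeR adjusted p = 0.000709) and by 3.26 ± 0.568 in WT mice (edgeR adjusted p = 0.000423). The nuclear receptor gene Nr4a1 rose by 3.06 ± 0.672 in Shank3 mice at 1 h (edgeR adjusted p = 0.00758) and by 3.17 ± 0.659 in WT mice (edgeR adjusted p = 0.00116). Both passed at 1 h with the pair share as a covariate, like Bhlhe40, at 3.04 and 3.12 for Fos and at 2.70 and 2.65 for Nr4a1.

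Among genes that respond to glucocorticoids, 13 of 18 on a list were tested. None passed in Shank3 mice at 1 h, and 2 were higher in WT mice at 1 h. At 4 h, 6 were higher and 2 lower in Shank3 mice, and 5 higher and 2 lower in WT mice, which are near the 62.1% and 56.0% of all genes that passed. At 1 h, 12.2% of all genes passed in Shank3 mice and 34.2% in WT mice. The list median was 0.31 in Shank3 mice and 0.05 in WT mice at 1 h, against 0.09 and 0.24 over all genes tested, and 0.50 in Shank3 mice and 0.52 in WT mice at 4 h, against 0.22 and 0.23. Cdkn1a, a cell cycle inhibitor, rose by 1.59 ± 0.321 in Shank3 mice at 4 h (edgeR adjusted p = 7.64e-05) and by 1.82 ± 0.359 in WT mice (edgeR adjusted p = 8.82e-05). The kinase gene Sgk1 rose by 1.79 ± 0.435 in Shank3 mice at 4 h (edgeR adjusted p = 0.000655), and its WT value is not given. For the difference in swim effect between genotypes at 4 h, 0 genes of the list passed. Ddit4, an inhibitor of mTOR signalling, fell by 1.28 ± 0.386 in Shank3 mice at 4 h (edgeR adjusted p = 0.00474) and by 1.17 ± 0.385 in WT mice (edgeR adjusted p = 0.0103). None of these 3 passed at 4 h with the pair share as a covariate.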
